A study of Mus musculus with 2 samples.

Results

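Hgf, Met, Fgf2, Fgf7, Fgfr1, Fgfr4, Plau and Plaur, 8 of the 27998 genes in the count tables, encode growth factors, receptors and a surface protease pair linked to the activation of muscle stem cells (MuSCs) after injury. They were chosen by name, with no measured value in the rule, and were followed over every annotated cell type of regenerating mouse muscle. HGF (hepatocyte growth factor) is secreted as an inactive precursor that serine proteases cleave in the matrix, and the cleaved form signals through the receptor tyrosine kinase MET, which quiescent MuSCs carry. FGF2 and FGF7 are fibroblast growth factors that bind FGF receptors together with heparan sulphate chains. FGFR1 and FGFR4 are the FGF receptors best known from the myogenic lineage, and FGF2 is a mitogen for MuSCs, whereas FGF7 is known mainly as a stromal factor for epithelium. Urokinase, the product of Plau, turns plasminogen into plasmin and can cleave the HGF precursor, and its receptor, the product of Plaur, holds it at the cell surface.

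Tibialis anterior muscle, from the front of the lower leg, was injected with notexin, a snake venom toxin that destroys muscle fibres, and was dissociated into single cells 2 or 7 days later. Each day had 1 droplet library (10x Chromium 3' version 3) of whole muscle from 1 mouse, with no sort and no uninjured library among the samples analysed here. The strain was C57BL/6J, with no transgene or deletion named. GEO's labels give female mice of 7 months for both days, whereas the deposited cell annotation gives males of 4 months at day 2 and 7 months at day 7. The libraries held 5 and 1 counts of Xist, transcribed from the inactive X chromosome of females, against 3251 and 2427 counts of the Y-linked gene Ddx3y, which goes against the labelled sex. Age and day cannot be told apart if the annotation holds.

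After the limits on quality, 3178 annotated cells with 34026345 unique molecular identifier (UMI) counts remained at day 2 and 3196 cells with 27620535 counts at day 7. The median cell held 9058.5 and 6583 counts, and 1 cell barcode occurred in both libraries. Counts were summed over the cells of a type and given as CPM, counts per 1000000 counts of that sum. Intervals in parentheses are 95% intervals that cover counting error only. With 1 library per day, no difference below has a replicate check, no p-value is given, and day and library cannot be told apart. The 25 deposited annotations were gathered into 12 classes, among them fibro-adipogenic progenitors (FAPs, 215 cells at day 2 and 805 at day 7), monocytes and macrophages (1292 and 757), and myogenic cells (22 and 312). All 7 FAP markers and all 8 monocyte and macrophage markers were above 0 in their own class on both days, and 3 or more FAP marker counts stood in every FAP. The myogenic class of day 2 was weak: 5 of its 22 cells held 3 or more counts of the 7 myogenic markers, Myog was at 0, and erythroid genes made up 22299 CPM of its 81754 counts. Cells annotated as smooth muscle also went against their name in part, since 284 of 304 at day 2 and 196 of 232 at day 7 held 3 or more counts of endothelial markers. Of the dendritic cells, 134 of 170 at day 2 and 105 of 145 at day 7 held 3 or more counts of monocyte and macrophage markers, which summed to 2065 and 2199 CPM there, against 720.4 and 992 CPM of dendritic markers. The part of these markers in the dendritic values below was not tested.

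On GRCm38 (mm10), by GENCODE vM21, all 8 are protein-coding genes on the plus strand. Hgf (ENSMUSG00000028864) spans chr5:16553495-16620152 and Met (ENSMUSG00000009376) spans chr6:17463800-17573980. Fgf2 (ENSMUSG00000037225) lies at chr3:37348346-37410108 and Fgf7 (ENSMUSG00000027208) at chr2:126034658-126091185. Fgfr1 (ENSMUSG00000031565) lies at chr8:25513654-25575718 and Fgfr4 (ENSMUSG00000005320) at chr13:55152640-55168759. Plau (ENSMUSG00000021822) spans chr14:20836660-20843385 and Plaur (ENSMUSG00000046223) spans chr7:24462484-24475968.

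The FGF ligands lay mostly in FAPs on both days, Met changed its main source between the days, and Plaur was spread over many classes. At day 2, 69.6% (64.9 to 74.0) of the 408 Hgf counts lay in monocytes and macrophages, which held 48.4% of the counts of all genes. FAPs held 4.66% (2.83 to 7.18) of the Hgf counts at day 2 and 34.6% (28.9 to 40.5) of 272 at day 7, against 15.1% and 29.5% of the counts of all genes. At day 7 monocytes and macrophages held 59.6% (53.5 to 65.4) of the Hgf counts, against 27.2% of the counts of all genes. Without cells that held 3 or more marker counts of another class that share was 86.4%, and 68.1% where only unrelated classes counted. Hgf transcripts thus lay mainly in myeloid cells on both days, with a FAP share at day 7 that depended on which cells were kept. FAPs held 89.8% (86.1 to 92.8) of 342 Fgf2 counts at day 2 and 76.1% (68.6 to 82.6) of 155 at day 7. For Fgf7 the FAP share was 97.6% (94.9 to 99.1) of 252 counts and 90.4% (86.0 to 93.8) of 240 counts. The next largest share for either FGF ligand was 9.03%, that of Fgf2 in myogenic cells of day 7. Met lay mostly in monocytes and macrophages at day 2, with 78.9% (73.3 to 83.8) of 251 counts, and mostly in myogenic cells at day 7, with 73.4% (67.9 to 78.4) of 289 counts. The class share of the counts of every gene went from 0.24% to 11.7% over the same days, so the shift of Met went with a shift in the number of myogenic cells. Fgfr4 had 1 count in all kept cells of day 2, in a T cell, and 485 counts at day 7, of which 90.3% (87.3 to 92.8) were myogenic. Where cells with 3 or more marker counts of an unrelated class were left out, 49 myogenic cells of day 7 remained, and they held 8.51% of Met and 46.2% of Fgfr4 counts. Fgfr1 lay in FAPs, with 80.7% (78.6 to 82.7) of 1443 counts at day 2 and 65.8% (64.1 to 67.4) of 3154 at day 7, when myogenic cells held 22.4% (20.9 to 23.9). The protease and its receptor had different main sources on both days. FAPs held 65.8% (63.9 to 67.6) of 2505 Plau counts and 61.5% (58.86 to 64.03) of 1399, and monocytes and macrophages held 54.1% (53.2 to 55.1) of 10973 Plaur counts and 60.6% (58.4 to 62.9) of 1859.

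**Figure D1:**
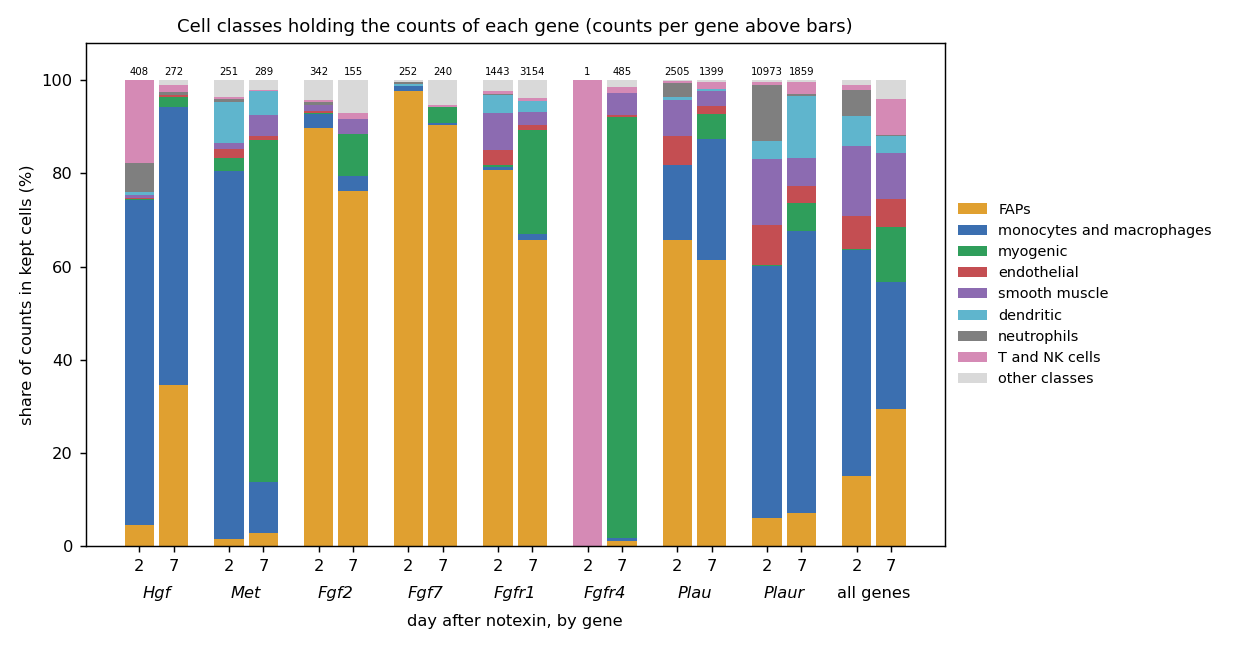
Share of the counts of each gene (vertical axis, %) held by each cell class at day 2 and day 7 (horizontal axis), with the number of counts above each bar and the share of all genes' counts at the right. Fgf2 and Fgf7 lay in FAPs on both days, while the Met bar passed from monocytes and macrophages (78.9%) to myogenic cells (73.4%).

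In monocytes and macrophages the Hgf level was 17.2 CPM (15.3 to 19.4, 284 counts) at day 2 and 21.5 CPM (18.4 to 25.1, 162 counts) at day 7. The log2 ratio of day 7 to day 2 was 0.32 (0.04 to 0.61), a small difference next to those below. It did not run the same way in every annotation. Patrolling monocytes had 26.6 CPM (20.9 to 33.4) at day 2 and 20.3 CPM (13.6 to 29.1) at day 7. Inflammatory monocytes had 15.9 CPM (11.3 to 21.6) and 10.8 CPM (4.0 to 23.5). M2 macrophages annotated Cx3cr1_hi had 12.7 CPM (6.3 to 22.7) and 29.3 CPM (20.6 to 40.6). Among the 6 annotations of the class, this was the only one whose log2 ratio of Hgf, 1.21 (0.21 to 2.33), had an interval off 0. M1 macrophages, the largest group, went from 17.4 CPM (14.4 to 20.9) to 21.9 CPM (17.1 to 27.5). M2 macrophages annotated Cx3cr1_lo had 11.4 CPM at day 2 and 15.6 CPM at day 7, and Cxcl10+ monocytes had 12.7 and 23.3 CPM from 5 and 9 counts. All of these lay above the ambient level of Hgf, the CPM over barcodes with 1 to 100 counts, which was 4.91 at day 2 and 5.03 at day 7. The intervals of Inflammatory monocytes at day 7 and of Cxcl10+ monocytes at day 2 (4.11 to 29.6) reached below it.

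FAPs had 3.70 CPM of Hgf (2.23 to 5.78, 19 counts) at day 2 and 11.5 CPM (9.32 to 14.1, 94 counts) at day 7, which gave a log2 ratio of 1.64 (0.92 to 2.43). The day 2 value lay at the ambient level of 4.91 CPM, and that of day 7 above its ambient level of 5.03 CPM. Of 7 members with 10 or more counts in FAPs, Hgf was the 1 past 2-fold higher at day 7, where 27.5% of all 12998 genes were past 2-fold higher. The Pro-remodeling annotation differed most between the days, and went from 1.71 CPM (0.63 to 3.72, 6 counts) to 11.9 CPM (9.26 to 15.0, 70 counts). Adipogenic FAPs had 8.42 CPM (1.74 to 24.6, 3 counts) and 12.8 CPM (7.89 to 19.5, 21 counts). Stem FAPs had 7.88 CPM (3.78 to 14.5, 10 counts) and 4.89 CPM (1.01 to 14.3, 3 counts). At day 2 the Pro-remodeling level lay below that of Stem FAPs, by a log2 ratio of -2.20 (-3.95 to -0.60), which turned to 0.094 without cells that held markers of another class, and at day 7 no pair of annotations differed beyond counting error. The interval of the Pro-remodeling level at day 2 lay below the ambient level and that of Stem FAPs reached across it. Within each day Hgf was higher in the FAPs that also held monocyte and macrophage markers, which summed to 118.4 CPM at day 2 and 134.1 CPM at day 7 over all FAPs. In the FAPs with 3 or more counts of those markers, Hgf was 8.17 CPM at day 2 (52 cells) and 17.8 CPM at day 7 (105 cells). In the other FAPs it was 1.91 CPM (0.77 to 3.94, 7 counts in 163 cells) and 10.0 CPM (7.76 to 12.8, 700 cells). Without all cells that held 3 or more marker counts of any other class, the log2 ratio was 0.58, over 116 and 151 cells.

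Another source of Hgf stood out at day 2. The T cell annotation held 73 Hgf counts, 268 CPM (210.0 to 336.9) over 50 barcodes, against 1.23 CPM (0.15 to 4.44) over 293 barcodes at day 7. All 73 counts lay in 17 barcodes that held 3 or more counts of basophil and mast cell genes, and 13 of these 17 had a count of Hgf. Their level was 993 CPM (779 to 1249). The 17 barcodes held 167 counts of Mcpt8, a basophil protease, 242 of Cpa3, carboxypeptidase A of mast cells and basophils, and 151 of Gata2, and 0 counts of the T cell genes Cd3e and Cd3g. The other 33 T cell barcodes held 0 counts of Hgf, 0 of Mcpt8 and Cpa3, and 25 and 29 counts of Cd3e and Cd3g. At day 7, 0 of 293 T cell barcodes carried 3 such counts. Hgf at day 2 in this annotation was therefore a value of barcodes that went against their label. Neutrophils of day 2, with 708 cells, had 12.8 CPM of Hgf (8.3 to 18.9, 25 counts), and those of day 7 could not be compared, since 1 of 10 held 3 or more neutrophil marker counts.

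Fgf2, the mitogen without a secretion signal, had its main source in FAPs. FAPs had 59.8 CPM (53.3 to 66.9, 307 counts) at day 2 and 14.5 CPM (12.0 to 17.3, 118 counts) at day 7, which is 4.13-fold lower, a log2 ratio of -2.05 (-2.37 to -1.74). Fgf2, Plau and Plaur were the 3 of 7 members past 2-fold lower in FAPs, where 13.8% of all genes were past 2-fold lower. The annotations went apart between the days. Stem FAPs had 84.3 CPM (69.1 to 101.8) at day 2 and 63.6 CPM (45.2 to 86.9) at day 7, which gave a log2 ratio of -0.41 (-0.97 to 0.14). Adipogenic FAPs had 56.2 CPM (34.3 to 86.7) and 13.4 CPM (8.37 to 20.2). Pro-remodeling FAPs had 51.3 CPM (44.1 to 59.4) and 9.68 CPM (7.33 to 12.5). The interval of the ratio between days reached across 0 in Stem FAPs only, and the difference between these ratios was not tested. At day 7 the log2 ratio to Stem FAPs was -2.25 (-3.08 to -1.46) for Adipogenic and -2.72 (-3.33 to -2.09) for Pro-remodeling FAPs, against -0.59 (-1.35 to 0.11) and -0.72 (-1.07 to -0.36) at day 2. Stem FAPs were 47 of 215 FAPs at day 2 and 78 of 805 at day 7, so the class values also carry this shift in make-up. Averaged over cells in place of summed counts, the class log2 ratio was -1.60, and it was -0.84 without cells that held markers of another class. Tenocytes had 57.0 CPM of Fgf2 (26.1 to 108.2, 9 counts in 16 cells) at day 2 and 15.7 CPM (6.3 to 32.3) at day 7. The 9 neural cells of day 2 had 91.1 CPM (33.4 to 198.2), from 6 counts in 1 cell. No count of Fgf2 was seen in 333 endothelial cells, 145 dendritic cells or 96 myofibre nuclei of day 7.

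Fgf7, a secreted ligand, lay almost wholly in FAPs. FAPs had 47.9 CPM (42.1 to 54.3, 246 counts) at day 2 and 26.6 CPM (23.2 to 30.4, 217 counts) at day 7, 1.80-fold lower, with a log2 ratio of -0.85 (-1.12 to -0.58). Adipogenic FAPs stood highest on both days, with 140.4 CPM (104.2 to 185.1) and 53.4 CPM (42.9 to 65.8). Stem FAPs had 50.4 CPM (38.8 to 64.4) and 34.2 CPM (21.2 to 52.4), and Pro-remodeling FAPs had 37.6 CPM (31.5 to 44.6) and 18.3 CPM (15.0 to 22.1). At day 2 the log2 ratio of Adipogenic to Stem FAPs was 1.48 (0.91 to 2.03), and at day 7 it was 0.64 (-0.06 to 1.404), so these neighbours did not differ beyond counting error at day 7. Pro-remodeling lay below Adipogenic FAPs by a log2 ratio of -1.90 (-2.38 to -1.400) at day 2 and -1.54 (-1.96 to -1.12) at day 7. Outside FAPs, 41 neural cells of day 7 had 55.9 CPM of Fgf7 (28.9 to 97.7, 12 counts). All 8 myogenic Fgf7 counts of day 7 lay in 4 of the 35 cells with 2 or more counts of Myog, Mymk and Mymx, genes of commitment and fusion. These 35 cells held 22946 counts of all genes on average, against 8764 in the other myogenic cells. The part of FAP transcripts in these 8 counts was not tested, and no doublet caller was run. Cells with both FGF ligands were 66 of 215 FAPs at day 2 and 22 of 805 at day 7, when the median FAP held 24329 and 8429 counts. Thinned to 2000 counts per cell, 7.04% of 213 FAPs of day 2 and 3.82% of 785 of day 7 had a count of Fgf2, and 10.3% and 4.46% had a count of Fgf7. In B, T and NK cells, which are not known sources, the thinned shares were 0% and 0.556% for Fgf2 and 0% for Fgf7 on both days.

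**Figure D2:**
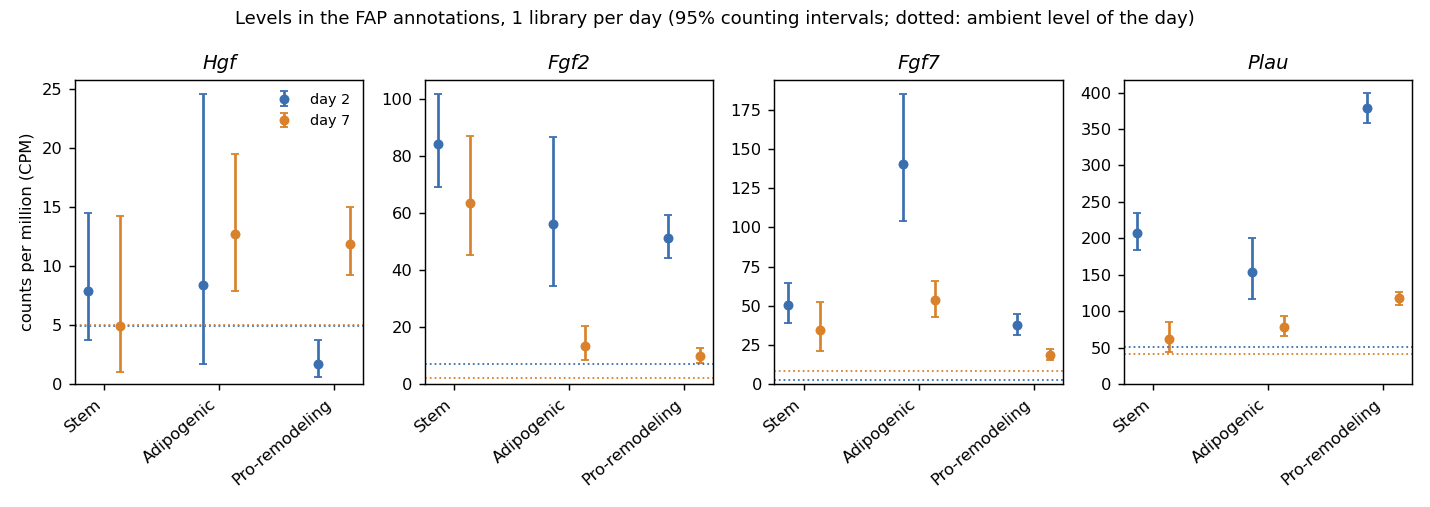
Levels of Hgf, Fgf2, Fgf7 and Plau (vertical axis, CPM) in the 3 FAP annotations at day 2 and day 7, as points with 95% counting intervals, from 1 library per day, with the ambient level of each day dotted. Fgf2 in Stem FAPs (84.3 and 63.6 CPM) stayed close between days while the other annotations had 13.4 and 9.68 CPM at day 7, and Fgf7 was highest in Adipogenic FAPs on both days.

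The promoter of Fgf7 is shown because its counts lay almost wholly in FAPs, and that of Plaur because its level differed between days in most cell types. The RefSeq promoter table (GRCm38.p6) held 6 of the 8 genes. Fgf7 is printed from chr2:126034408-126034657 and Plaur from chr7:24462233-24462482, both the 250 bases before the RefSeq start, on the plus strand, 5' to 3'. For Plaur the RefSeq start lies 1 base before the GENCODE start given above. Capitals mark letters that match any of 4 motifs on either strand, namely the AP-1 motif TGANTCA, the E-box CANNTG, the GC box GGGCGG and the TATA box TATAAA.
Fgf7: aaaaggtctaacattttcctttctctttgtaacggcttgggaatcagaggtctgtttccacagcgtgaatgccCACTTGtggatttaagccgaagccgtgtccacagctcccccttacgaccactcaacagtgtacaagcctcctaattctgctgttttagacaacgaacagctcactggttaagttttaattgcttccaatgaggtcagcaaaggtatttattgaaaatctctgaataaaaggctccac
Plaur: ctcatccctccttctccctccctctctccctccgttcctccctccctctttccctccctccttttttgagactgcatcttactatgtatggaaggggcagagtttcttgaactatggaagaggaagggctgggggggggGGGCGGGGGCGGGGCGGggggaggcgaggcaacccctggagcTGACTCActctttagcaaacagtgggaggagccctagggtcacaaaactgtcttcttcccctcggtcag
The Fgf7 window held 1 E-box and none of the other 3 motifs. The Plaur window held 3 partly overlapping GC boxes and 1 AP-1 match, TGACTCA, which began 69 bases before the start. Of 32851 promoter windows of the same length, 6.75% held an AP-1 match, 66.2% an E-box, 32.7% a GC box and 12.4% a TATA box. Among the other members, the Met window held 1 AP-1 match, and those of Hgf, Fgf2 and Fgfr4 held 0. These matches describe letters only.

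MET, FGFR1 and FGFR4 are the receptors through which myogenic cells can read these ligands, and at day 7 all of them were measured in the 312 myogenic cells. Met had 65.6 CPM (57.1 to 75.1, 212 counts), Fgfr1 had 218.5 CPM (202.7 to 235.3, 706 counts) and Fgfr4 had 135.6 CPM (123.2 to 148.9, 438 counts), against ambient levels of 5.44, 57.6 and 15.9 CPM. The MuSC annotation stood above the Myoblasts/Progenitors annotation for each of them. Met was 95.8 CPM (75.0 to 120.7) in 137 MuSCs and 56.5 CPM (47.5 to 66.6) in 175 myoblasts and progenitors, a log2 ratio of 0.76 (0.33 to 1.18). Fgfr1 was 334 CPM (294.1 to 378.1) and 183.5 CPM (167.0 to 201.2), a log2 ratio of 0.86 (0.64 to 1.09). Fgfr4 was 202.3 CPM (171.4 to 237.2) and 115.3 CPM (102.4 to 129.5), a log2 ratio of 0.81 (0.52 to 1.10). The median gene moved the same way: under median-of-ratios scaling the 2 annotations were set 0.51 apart on the log2 scale, and the ratios became 0.25 for Met, 0.35 for Fgfr1 and 0.30 for Fgfr4. Myofibre markers made up 101752 CPM of the myoblast and progenitor counts, and their part in this shift was not tested. On that scale the interval of Met reached across 0 (-0.18 to 0.67), and those of Fgfr1 (0.13 to 0.58) and Fgfr4 (0.0061 to 0.59) stayed above it. Per cell the direction was the opposite, with 0.526 Met counts in a MuSC and 0.80 in a myoblast or progenitor, which held 5483 and 14168 counts of all genes on average. None of the 3 receptors was past 2-fold between the annotations, where 20.2% of all genes were past 2-fold higher and 8.44% past 2-fold lower in MuSCs. Of 6 members with 10 or more counts, Fgf2 was the 1 past 2-fold higher and 0 were lower, with 10.6 CPM in MuSCs and 2.42 CPM in myoblasts and progenitors from 8 and 6 counts, a log2 ratio of 2.14 (0.42 to 3.94), and of 1.63 (-0.090 to 3.43) under median-of-ratios scaling. Plaur had 34.6 CPM (22.6 to 50.7) and 34.3 CPM (27.4 to 42.4) in the same annotations, and Plau had 28.0 CPM (17.3 to 42.7) and 21.0 CPM (15.7 to 27.5), all below the ambient levels of that day, 59.8 CPM for Plaur and 41.5 CPM for Plau.

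As a share of all counts, the receptors were lower in cells with 2 or more counts of Myog, Mymk and Mymx, which mark commitment. The 35 cells past that limit had 31.1 CPM of Met (20.1 to 46.0), and the other 277 had 77.0 CPM (66.4 to 88.9). Fgfr4 was 71.0 CPM (53.8 to 92.0) in the 35 cells and 156.9 CPM (141.6 to 173.5) in the rest. Fgfr1 differed less, at 171.8 CPM (144.4 to 203.0) against 234.0 CPM (215.1 to 254.0). Under median-of-ratios scaling the log2 ratios of committed to other cells were -1.20 (-1.86 to -0.59) for Met, -1.03 (-1.46 to -0.63) for Fgfr4 and -0.34 (-0.61 to -0.064) for Fgfr1. Per cell the receptors were not lower, since a committed cell held 22946 counts of all genes on average and the others 8764. Met was 0.714 counts per committed cell and 0.675 per other cell, Fgfr4 was 1.63 and 1.38, and Fgfr1 was 3.94 and 2.05. The receptors often shared cells. Of 312 myogenic cells, 123 had a count of Met, 226 of Fgfr1 and 187 of Fgfr4. Met and Fgfr4 occurred together in 98 cells, Met and Fgfr1 in 105, and Fgfr1 and Fgfr4 in 160. Of the cells with Met, 79.7% also had Fgfr4, and of the cells with Fgfr4, 52.4% also had Met, shares that rise with the depth of a cell. Thinned to 2000 counts, 25.0% of 132 MuSCs had a count of Met, 47.0% of Fgfr1 and 38.6% of Fgfr4, against 14.9%, 33.7% and 28.0% of 175 myoblasts and progenitors. The thinned lymphoid background was 0% for Met, 0.556% for Fgfr1 and 0.833% for Fgfr4, with a median of 3625 counts per cell before thinning.

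**Figure D3:**
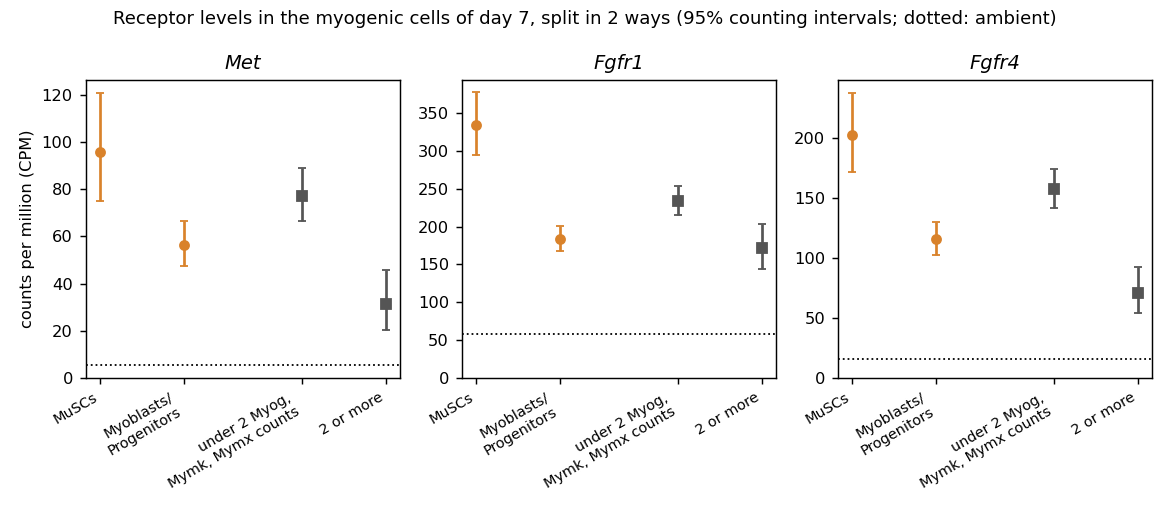
Levels of Met, Fgfr1 and Fgfr4 (vertical axis, CPM) in the myogenic cells of day 7, by annotation (circles) and by 2 or more counts of Myog, Mymk and Mymx (squares), with 95% counting intervals and the ambient level dotted. Each receptor was higher in MuSCs than in myoblasts and progenitors, and Met was 31.1 CPM in the 35 committed cells against 77.0 CPM in the rest.

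The day 2 myogenic class allowed few statements. Its 22 cells held 7 counts of Met, 5 of Fgfr1, 7 of Plaur, 1 each of Hgf, Fgf2 and Plau, and 0 of Fgf7 and Fgfr4. All 7 Met counts lay in 3 of the 5 MuSCs that held 3 or more myogenic marker counts, at 179.6 CPM (72.2 to 370.0). In the 16 other barcodes annotated as MuSCs, Met was at 0 of 41082 counts, which allows up to 73.0 CPM. Met over the class was 85.6 CPM (34.4 to 176.4) at day 2 and 65.6 CPM at day 7, a log2 ratio of -0.38 (-1.45 to 0.95), so no difference was detectable at this depth. Fgfr1 was 61.2 CPM (19.9 to 142.7) at day 2, 3.57-fold below day 7, with a log2 ratio of 1.84 (0.61 to 3.46). Fgfr4 at 0 of 81754 counts allowed up to 36.7 CPM, and day 7 was at least 3.69-fold higher. Kept to cells with 3 or more myogenic marker counts, 5 at day 2 and 307 at day 7, these values moved. Fgfr1 was 102.6 CPM (28.0 to 262.7) and 217.7 CPM, with a log2 ratio of 1.09 (-0.28 to 2.97), and Fgfr4 was at least 1.74-fold higher at day 7. Met in the same cells was 179.6 and 65.9 CPM, a log2 ratio of -1.45 (-2.51 to -0.11), which became -0.55 (-1.62 to 0.78) under median-of-ratios scaling. Of 6 members with 10 or more counts in myogenic cells over both days, 2 were past 2-fold higher at day 7 (Fgfr1 and Fgfr4), where 4.97% of all genes were, and 2 were past 2-fold lower (Fgf2, with 1 count at day 2, and Plaur), where 53.1% were. In the cells with 3 or more myogenic marker counts, 1 of 6 was past 2-fold higher (Fgfr1) and 4 were lower (Met, Fgf2, Plau and Plaur). No share over all genes was computed for those cells. With the floor of 3 counts at 36.7 CPM for day 2, a gene with a low level at day 7 counted as lower whatever its day 2 count, so calls of lower genes in this class are not read further. The median gene was 1.10 lower at day 7 on the log2 scale, with counts under 3 taken as 3, and median-of-ratios scaling set the days -0.69 apart.

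Outside the myogenic lineage, monocytes and macrophages held more Met counts than any other class on both days. Monocytes and macrophages had 12.0 CPM (10.4 to 13.8, 198 counts) at day 2 and 4.26 CPM (2.91 to 6.01, 32 counts) at day 7, 2.82-fold lower, with a log2 ratio of -1.50 (-2.08 to -0.95). Inflammatory monocytes had 27.4 CPM (21.3 to 34.7, 69 counts) at day 2 and 1 count at day 7, a log2 ratio of -3.93 (-9.25 to -1.404). Cxcl10+ monocytes had 32.9 CPM (17.5 to 56.3, 13 counts) and 1 count. M1 macrophages had 10.8 CPM (8.45 to 13.6, 73 counts) and 3.89 CPM (2.07 to 6.65), and the Cx3cr1_hi M2 macrophages had 20.7 CPM (12.3 to 32.8) and 5.71 CPM (2.29 to 11.8). The 2 monocyte annotations with the highest Met level at day 2 were thus near the floor at day 7. Patrolling monocytes had 7.56 CPM (4.68 to 11.6) and 6.98 CPM (3.35 to 12.8), and M2 macrophages annotated Cx3cr1_lo had 1.27 CPM (0.35 to 3.25) and 0 counts. The ambient level of Met was 5.89 CPM at day 2 and 5.44 CPM at day 7. The interval of the class at day 7 held the level of that day. Ambient levels describe counts outside cells, and what part of the class counts came from there was not tested. Dendritic cells had 10.2 CPM (6.42 to 15.5) and 14.4 CPM (8.08 to 23.8), and tenocytes had 31.7 CPM (10.3 to 73.9, 5 counts) and 11.2 CPM (3.63 to 26.1, 5 counts). In smooth muscle, 3 counts at day 2 and 13 at day 7 gave a log2 ratio of 3.03 (1.17 to 5.48), with 4.80 CPM at day 7, below the ambient level.

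Fgfr1 was near even between days in its main source. FAPs had 227 CPM (214.1 to 240.4, 1165 counts) at day 2 and 255 CPM (243.8 to 265.8, 2075 counts) at day 7, a log2 ratio of 0.17 (0.06 to 0.27). Stem FAPs were highest on both days, with 272.5 CPM (244.6 to 302.8) and 333 CPM (288.6 to 381.6). Adipogenic FAPs had 216.2 and 275.1 CPM, and Pro-remodeling FAPs had 211.5 and 240.7 CPM. Tenocytes had 139.3 CPM (87.3 to 210.9) at day 2 and 208.2 CPM (168.0 to 255.0) at day 7. Among the immune classes, dendritic cells of day 7 had the highest Fgfr1 level. They had 26.1 CPM (19.7 to 33.9, 56 counts) at day 2 and 67.4 CPM (52.5 to 85.1, 70 counts) at day 7, a log2 ratio of 1.37 (0.84 to 1.90). This was the 1 of 4 members past 2-fold higher in dendritic cells, where 17.4% of all genes were, and 0 of 4 were past 2-fold lower, where 7.94% of all genes were. The dendritic cells without a count of the stromal genes Pdgfra, Dcn, Col1a1 and Col3a1 had 25.3 CPM (18.4 to 34.0, 140 cells) and 57.5 CPM (34.1 to 90.8, 55 cells). The ambient level of Fgfr1 was 19.98 CPM at day 2 and 57.6 CPM at day 7, so the dendritic and the ambient level were both higher at day 7. In monocytes and macrophages Fgfr1 was 0.55 CPM (0.25 to 1.04) and 4.92 CPM (3.46 to 6.78), far below the ambient level on both days. Fgfr1 was the 1 of 6 members past 2-fold higher there, with 22.0% of all genes past 2-fold higher.

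Fgfr4 outside myogenic cells stayed at or below its ambient level of 15.9 CPM in nearly every class of day 7. Smooth muscle went from 0 to 22 counts, at least 13.8-fold higher, to 8.12 CPM (5.09 to 12.3). Neural cells had 18.7 CPM (5.08 to 47.8) from 4 counts, and FAPs had 0.61 CPM (0.20 to 1.43) from 5 counts.

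Plau, the urokinase gene, was highest in FAPs of day 2. FAPs had 321 CPM (305.7 to 336.9, 1648 counts) at day 2 and 105.5 CPM (98.6 to 112.8, 860 counts) at day 7, 3.04-fold lower, with a log2 ratio of -1.61 (-1.73 to -1.49). Pro-remodeling FAPs stood highest on both days, with 379 CPM (358.8 to 399.8) and 117.5 CPM (108.9 to 126.6). Stem FAPs had 207.9 CPM (183.6 to 234.6) and 62.0 CPM (43.9 to 85.1), and Adipogenic FAPs had 154.4 CPM (116.4 to 201.0) and 79.0 CPM (66.0 to 93.7). The log2 ratio of Pro-remodeling to Adipogenic FAPs was 1.29 (0.91 to 1.71) at day 2 and 0.57 (0.30 to 0.86) at day 7. To Stem FAPs the log2 ratio of Pro-remodeling FAPs was 0.87 at day 2 and 0.92 at day 7. Pro-remodeling FAPs thus stood at the top on both days, with a smaller distance to Adipogenic FAPs at day 7. All FAP values lay above the ambient levels of Plau, 51.4 CPM at day 2 and 41.5 CPM at day 7.

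Monocytes and macrophages went the other way for Plau. They had 24.3 CPM (22.0 to 26.8, 401 counts) at day 2 and 48.3 CPM (43.4 to 53.5, 363 counts) at day 7, a log2 ratio of 0.99 (0.78 to 1.20), just inside 2-fold. Patrolling monocytes went from 28.1 CPM (22.2 to 35.0) to 99.9 CPM (84.2 to 117.6), a log2 ratio of 1.83 (1.42 to 2.25). M1 macrophages had 19.8 CPM (16.6 to 23.4) and 35.9 CPM (29.8 to 43.0), Cx3cr1_hi M2 macrophages had 12.7 and 42.4 CPM, and Inflammatory monocytes had 9.92 and 28.7 CPM. Cx3cr1_lo M2 macrophages were the exception, with 45.0 CPM (37.9 to 53.1) and 26.0 CPM (14.5 to 42.8), a log2 ratio of -0.79 (-1.67 to -0.02). Most of these values lay below the ambient levels, and Patrolling monocytes of day 7 stood clearly above theirs. In the cells without a stromal count (the 4 genes named above) the class had 22.7 CPM at day 2 (1030 cells) and 66.9 CPM at day 7 (199 cells). Endothelial cells had 63.1 CPM (53.5 to 73.9) and 15.5 CPM (10.1 to 22.7), a log2 ratio of -2.03 (-2.69 to -1.42), smooth muscle had 38.6 and 16.6 CPM, and neutrophils of day 2 had 39.0 CPM (30.7 to 48.8).

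**Figure D4:**
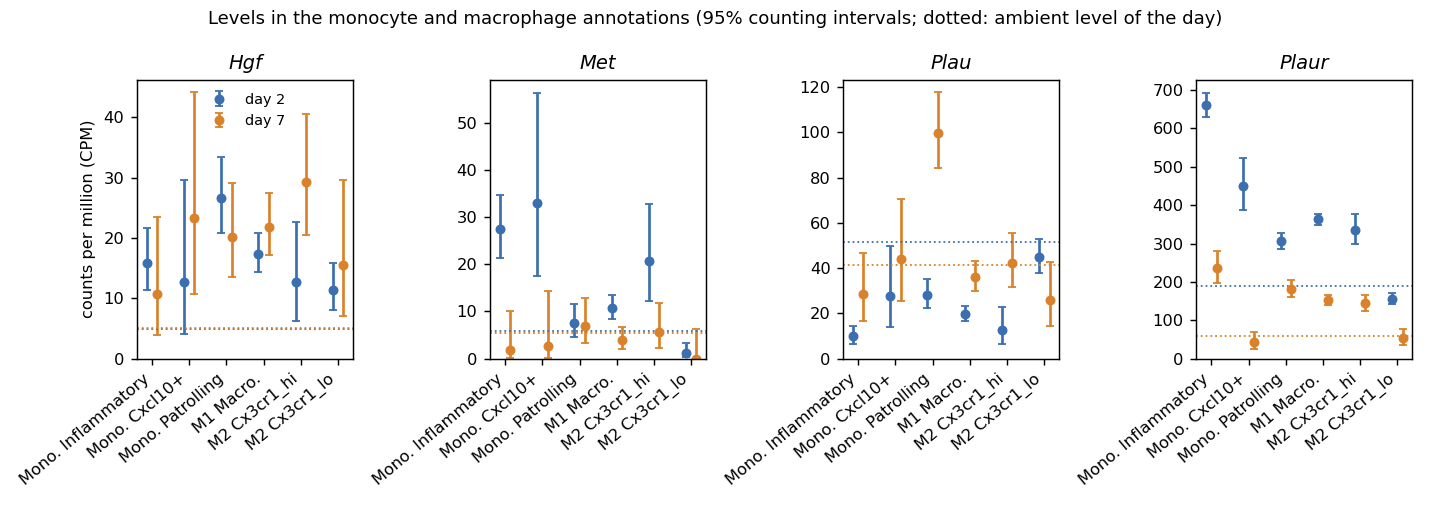
Levels of Hgf, Met, Plau and Plaur (vertical axis, CPM) in the 6 monocyte and macrophage annotations at day 2 and day 7, as points with 95% counting intervals, from 1 library per day, with the ambient level of each day dotted. Plaur was lower at day 7 in each annotation, and Plau was higher in Patrolling monocytes (28.1 and 99.9 CPM) and lower in the Cx3cr1_lo M2 macrophages.

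Plaur, the urokinase receptor, was lower at day 7 in nearly every cell type. It was past 2-fold lower in 6 of 7 classes with 20 or more cells on both days. Over all genes, the share past 2-fold lower was between 7.78% and 53.1%, depending on the class. The 6 include myogenic cells, with the 53.1%, whose calls of lower genes are not read further. The interval of Plaur lay below 0 in 5 of the 7 classes and 14 of 16 annotations, for which no share over all genes was computed. Smooth muscle and dendritic cells are counted in both numbers of groups. The interval of myogenic cells reached across 0. At day 2, FAPs (129.2 CPM), T and NK cells (168.1 CPM) and myogenic cells (85.6 CPM) lay below the ambient level of 188.3 CPM. At day 7, all of the 7 classes but monocytes and macrophages and dendritic cells lay below the ambient level of 59.8 CPM. Endothelial cells had 391.7 CPM (367.2 to 417.4, 950 counts) at day 2 and 41.1 CPM (32.0 to 52.0, 69 counts) at day 7, 9.53-fold lower, with a log2 ratio of -3.25 (-3.63 to -2.90). With Plau this made 2 of 3 members past 2-fold lower in endothelial cells, where 10.2% of all genes were, and 0 of 3 were past 2-fold higher, where 16.9% were. Endothelial Plau at day 7 also lay below its ambient level of 41.5 CPM. FAPs had 129.2 CPM (119.5 to 139.4, 663 counts) and 16.1 CPM (13.4 to 19.1, 131 counts), 8.04-fold lower. Adipogenic FAPs showed the largest ratio of the 16 annotations, from 196.6 CPM (153.2 to 248.4) to 8.50 CPM (4.65 to 14.3). T and NK cells had 168.1 CPM (128.5 to 215.9) and 20.8 CPM (15.1 to 27.9), and there 4 of 4 members were past 2-fold lower against 10.1% of all genes, and 0 of 4 higher against 8.49%. Without the 17 barcodes with basophil and mast cell genes, Hgf had 0 counts at day 2, and Plau was 38.0 CPM at day 2 and 10.4 CPM at day 7. Fgfr1 was then 10.4 CPM from 3 counts at day 2 and 8.98 CPM at day 7, and Plaur was 134.7 and 20.8 CPM. Of the 3 members that then had 10 or more counts, 2 (Plau and Plaur) were past 2-fold lower and 0 higher. The share over all genes was not computed without these barcodes. The class that supplied most Plaur counts differed least among the 5 whose interval lay below 0. Monocytes and macrophages had 360.2 CPM (351.1 to 369.5, 5938 counts) at day 2 and 149.9 CPM (141.2 to 158.9, 1127 counts) at day 7, 2.40-fold lower, with a log2 ratio of -1.27 (-1.36 to -1.17). With Met, 2 of 6 members were past 2-fold lower there, where 12.2% of all genes were.

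Within monocytes and macrophages Inflammatory monocytes had the highest Plaur on both days, 661 CPM (629.5 to 693.4) and 237.2 CPM (198.4 to 281.2). Cx3cr1_lo M2 macrophages had the lowest level at day 2, 156.3 CPM (142.8 to 170.8), below the ambient level of 188.3 CPM. Cxcl10+ monocytes showed the largest ratio, from 451 CPM (387.0 to 522.1) to 44.0 CPM (25.6 to 70.5), and Patrolling monocytes the smallest, from 307 CPM (286.4 to 328.0) to 182.3 CPM (160.8 to 205.8). Neutrophils of day 2 had 679.8 CPM (643.6 to 717.4, 1324 counts), near the Inflammatory monocytes of that day. Dendritic cells did not follow the other classes, with 196.0 CPM (177.8 to 215.7, 421 counts) and 237.7 CPM (209.0 to 269.2, 247 counts), a log2 ratio of 0.28 (0.05 to 0.51). Without cells that held 3 or more marker counts of an unrelated class, it was -0.021, so their direction rests on which cells are kept.

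In smooth muscle Plaur was 305 CPM (290.1 to 320.6, 1558 counts) at day 2 and 40.2 CPM (33.0 to 48.5, 109 counts) at day 7, a log2 ratio of -2.92 (-3.22 to -2.64). Plau and Plaur were the 2 of 6 members past 2-fold lower there, with 7.78% of all genes past 2-fold lower, and Met and Fgfr4 the 2 past 2-fold higher, with 16.1% of all genes. At day 2 the 284 barcodes with 3 or more endothelial marker counts had 310.7 CPM of Plaur (295.4 to 326.5), and the 20 with fewer had 29.3 CPM (6.04 to 85.7) from 3 counts. Summed endothelial markers were 3819 CPM and summed smooth muscle markers 2459 CPM in this annotation. At day 7 the corresponding values of Plaur were 39.1 CPM (196 cells) and 58.4 CPM (36 cells). The day 2 value thus moved with endothelial markers in the same barcodes, and their part in it was not tested.

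**Figure D5:**
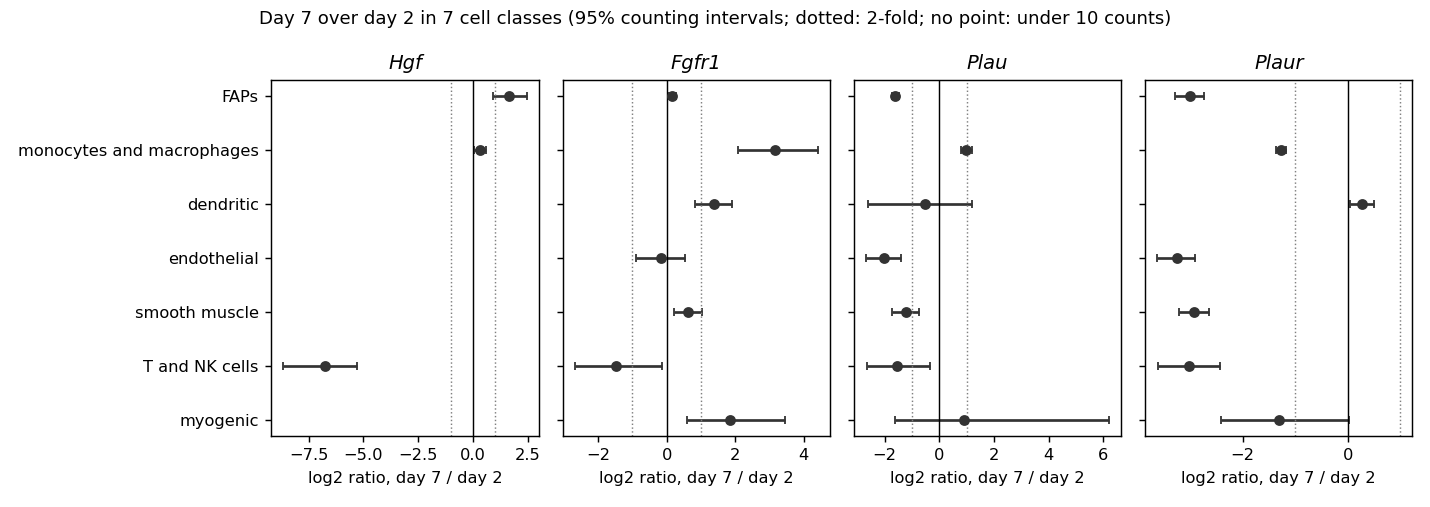
Log2 ratio of day 7 to day 2 (horizontal axis) of Hgf, Fgfr1, Plau and Plaur in 7 cell classes, as points with 95% counting intervals from 1 library per day, with no change as a solid and 2-fold as dotted lines. Plaur lay left of the 2-fold line in all classes but dendritic cells (0.28), with an interval across 0 in myogenic cells. Plau lay right of 0 in monocytes and macrophages (0.99) and left of it in FAPs (-1.61).

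The level of Plaur outside cells also differed between the days, with ambient values of 188.3 CPM at day 2 and 59.8 CPM at day 7. Thinned to 2000 counts, 51.2% of 332 endothelial cells had a count of Plaur at day 2 and 5.88% of 323 at day 7, against 15 of 75 and 13 of 360 lymphoid cells, or 3.61% at day 7. The endothelial share at day 7 was near the lymphoid one, and the share at day 2 was not. Lymphoid cells give no clean background for Plaur, since B cells of day 2 had 35 counts in 29 cells. In monocytes and macrophages the thinned shares were 47.5% and 19.9%, in FAPs 22.1% and 3.69%, and in neutrophils of day 2 55.7%. The FAP shares were close to the lymphoid ones on both days, and the levels of the FAP class lay below the ambient ones. Adipogenic FAPs of day 2 lay above the ambient level of that day. What part of the FAP counts came from outside cells was not tested. Genes of the dissociation stress response did not move in the same direction in every class. Of 12 such genes, 5 were past 2-fold lower at day 7 in endothelial cells and 4 in smooth muscle, with 0 higher in either. In FAPs 5 were past 2-fold higher and 0 lower, and in monocytes and macrophages 7 were higher and 0 lower, while Plaur was lower. In dendritic cells 8 were higher and 0 lower, in myogenic cells 4 were higher and 0 lower, and in T and NK cells 2 were higher and 0 lower. The shares of all genes past 2-fold lower were 10.2% in endothelial cells and 7.78% in smooth muscle, and the shares higher were 27.5% in FAPs, 22.0% in monocytes and macrophages, 17.4% in dendritic cells, 4.97% in myogenic cells and 8.49% in T and NK cells. The part of these stress genes in the Plaur values was not tested.

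Counts of the protease and its receptor could fall in the same cell. Plaur in FAPs lay below the ambient level on both days, and what part of its counts came from outside cells was not tested. Of 215 FAPs, 156 had counts of both Plau and Plaur at day 2, and of 805 at day 7, 69 had both. In endothelial cells both were read in 84 of 336 and in 6 of 333, and in monocytes and macrophages in 201 of 1292 and 102 of 757. Plau in monocytes and macrophages of day 2 and both genes in endothelial cells of day 7 also lay below their ambient levels. FAPs of day 2 held 24329 counts per cell in the median and those of day 7 8429, and such shares rise with depth.

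Other genes of the urokinase system in FAPs moved in different directions. Of 10 besides Plau and Plaur with 10 or more counts there, 2 were past 2-fold higher at day 7 and 1 lower, against 27.5% and 13.8% of all 12998 genes, with a median log2 ratio of 0.43 against 0.27. Plat, tissue plasminogen activator, was 70.7 CPM at day 2 and 213.9 CPM at day 7, and Vtn, the matrix protein vitronectin that binds the urokinase receptor, was 50.3 and 161.7 CPM. Lrp1, an endocytic receptor for protease and inhibitor complexes, was 431.5 and 797.9 CPM, within 2-fold. Plat and Vtn were the 2 past 2-fold higher. In monocytes and macrophages 11 further genes of this list were measured, with 6 past 2-fold higher and 3 lower, against 22.0% and 12.2% of all genes, and a median log2 ratio of 1.13 against 0.04. Of the 6 higher ones, 5 had fewer than 100 counts and fall outside the rule for naming. The 3 lower ones were S100a10, Anxa2 and Serpinb2. S100a10 and Anxa2, which form a plasminogen receptor, were 1450 and 230.1 CPM and 1066 and 342.8 CPM. Serpinb2, an intracellular inhibitor of urokinase, had 196 counts at day 2 and 0 at day 7. In endothelial cells 3 of 8 were past 2-fold higher and 1 lower, against 16.9% and 10.2% of all genes. In dendritic cells 1 of 7 was higher and 2 were lower, in smooth muscle 1 of 10 was higher and 2 were lower, in T and NK cells 0 of 8 were higher and 3 were lower, and in myogenic cells 1 of 9 was higher. Over all genes, the shares higher and lower were 17.4% and 7.94% in dendritic cells, 16.1% and 7.78% in smooth muscle, 8.49% and 10.1% in T and NK cells, and the share higher was 4.97% in myogenic cells.

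Of 20 other FGF ligands, 6 had 10 or more counts in FAPs, and 6 of these 6 were past 2-fold higher at day 7 and 0 lower, against 27.5% and 13.8% of all genes, with a median log2 ratio of 1.61. Fgf18 was 11.5 and 28.0 CPM, and Fgf1 was 2.53 and 10.9 CPM. Of 12 further FGF receptors and co-receptors in FAPs, 8 were past 2-fold higher and 1 lower, with a median log2 ratio of 1.14. Glypicans Gpc3 (16.6 and 99.5 CPM) and Gpc6 (7.21 and 49.8 CPM), which carry heparan sulphate, were among the higher ones, as was Sdc3 (23.8 and 72.6 CPM), and the syndecan Sdc4 was the lower one, at 483 and 89.6 CPM. The feedback and target genes of FGF signalling in FAPs had 3 of 10 past 2-fold higher and 0 lower, a share near that of all genes, 27.5% and 13.8%. Spry1, an inhibitor of receptor tyrosine kinase signalling, was 42.5 and 194.4 CPM, Il17rd was 3.70 and 18.9 CPM and Etv5 was 8.38 and 20.7 CPM, while Dusp6 was 23.8 and 22.5 CPM. Of the 8 such genes in monocytes and macrophages, 2 were past 2-fold higher and 3 were lower, against 22.0% and 12.2% of all genes, with Etv5 at 31.6 and 5.59 CPM and Dusp6 at 13.5 and 37.1 CPM. In myogenic cells 1 of 9 was past 2-fold higher, Spry1, with 1 count at day 2 and 142.7 CPM at day 7, against 4.97% of all genes.

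Of the genes that process HGF or act with MET, 3 besides Hgf and Met had 10 or more counts in FAPs, with 2 past 2-fold higher and 1 lower, against 27.5% and 13.8% of all genes. Gab1, the docking protein of MET, was 5.84 CPM at day 2 and 24.8 CPM at day 7, and Cd44, a hyaluronan receptor that can present HGF to MET, was 419 and 143.7 CPM. Of 7 in monocytes and macrophages, 4 were higher and 2 lower, against 22.0% and 12.2% of all genes. There Gab1 was 79.9 and 12.2 CPM, opposite in direction to FAPs, Cd44 was 830.1 and 243.1 CPM, and Sema4d was 38.4 and 148.8 CPM. In myogenic cells 0 of 4 were higher, where 4.97% of all genes were.

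Among 11257 genes with 200 or more counts, the patterns most like each member were found by Pearson correlation of log2(CPM + 10) over 35 groups of 30 or more cells, each an annotation on 1 day. These groups share 2 libraries and their depth, so the values are descriptions. Fgfr4 was closest to Cdh15 (r = 0.99), the cadherin of MuSCs, then Prox1 (0.97) and Iqsec3 (0.97). Met was closest to Dcx (0.72), Cdh15 (0.68) and Ncoa1 (0.67). Fgfr1 was closest to Dbn1 (0.95), Evc2 (0.93) and Bicc1 (0.93). The ligand Fgf2 was closest to Sod3 (0.93), Gfpt2 (0.93) and Slc4a4 (0.92), and Fgf7 to Fst (0.93), which encodes the activin antagonist follistatin, Sod3 (0.92) and Arhgap20 (0.91). Plau was closest to Cxcl1 (0.77), Penk (0.75) and Tfpi (0.74), and Plaur to Tuba1c (0.89), Mcl1 (0.86) and Cnih4 (0.85). Hgf was closest to the mast cell proteases Tpsb2 (0.74), Cpa3 (0.74) and Mcpt4 (0.74). Without the T cells of day 2 the genes most like Hgf were Ctsb (0.90), Cmklr1 (0.89) and Fam20c (0.88) over 34 groups.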

How the data were processed

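Per the file headers, the authors deposited UMI counts, whole numbers for each gene and barcode, from Cell Ranger 3.0.1 on mm10, whereas the submitters' notes name 3.1.0 and Seurat 3.1.5. They also deposited estimated counts after ambient correction with SoupX, and an annotation of barcodes by type. The study removed putative doublets with DoubletFinder. The table holds no doublet calls, and no caller was run here.

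Uncorrected counts were used. A barcode was kept when it was annotated and its SoupX values gave 750 genes and 1000 transcripts or more, with mitochondrial genes at 30% or less, which held for 3178 of 4836 and 3196 of 4889 filtered barcodes. Counts were summed per annotation or class and day, with exact Poisson intervals for levels, Clopper-Pearson intervals for shares and conditional binomial intervals for ratios, all at 95%. For a count of 0 the floor was 3 counts over the group. A gene was past 2-fold when its CPM ratio exceeded 2, among genes with at least 10 counts over both groups, with counts under 3 taken as 3. Days were compared where each had at least 20 cells. Thinning drew 2000 counts per cell without replacement and dropped cells with fewer. Ambient levels came from barcodes with 1 to 100 counts. The intervals were tested on simulated Poisson counts, the model that they assume. That test could not cover the clustering of counts within cells.

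All 8 members are described. From the pathway lists, genes were named in a class from those with at least 100 counts there that were among the 3 highest or 3 lowest ratios of their list. One gene of the urokinase list is not reported here by name. For likeness, the 3 genes with the highest correlation were named. The members and lists were chosen with earlier results of these data known. Of the marker genes, 2 (Ighm and Trbc2) were not in the gene table under those names, and Mymk and Mymx stand in it as Tmem8c and Gm7325. Quality limits, SoupX values, cell weights, scaling, thresholds and the removal of cells with markers of another class were varied. The split of T cells by basophil and mast cell genes, of myogenic cells by their markers and by commitment genes was chosen after seeing the data. Python 3.11.15, numpy 2.4.6, pandas 2.3.3 and scipy 1.17.1 were used.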

Additional observations from a re-analysis of the deposited data

Results flagged for a closer look

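For 5 genes the log2 ratio of day 7 to day 2 lay above 0 in some class and below 0 in another, beyond counting error, and the difference between classes was not tested. Hgf was 1.64 in FAPs and -6.73 in T and NK cells, where the day 2 counts lay in 17 barcodes with basophil and mast cell genes. Met was 3.03 in smooth muscle, from 3 and 13 counts, and -1.50 in monocytes and macrophages. Fgfr1 was 3.17 in monocytes and macrophages, at levels under the ambient one, and -1.47 in T and NK cells, from 9 and 19 counts, of which 6 of the 9 lay in the same 17 barcodes, and -0.21 (-1.97 to 2.19) without them. Plau was 0.99 in monocytes and macrophages and -2.03 in endothelial cells. Plaur was 0.28 in dendritic cells and -3.25 in endothelial cells.

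The filtered tables held 1299 barcodes at day 2 and 1473 at day 7 that were not in the annotation table and entered no comparison. At day 2 they held 8.57 CPM of Hgf, 10.1 of Met, 12.8 of Fgf2, 10.3 of Fgf7, 49.4 of Fgfr1, 62.3 of Plau and 252 CPM of Plaur. At day 7 they held 2.98 CPM of Hgf, 11.9 of Met, 3.44 of Fgf2, 4.59 of Fgf7, 59.4 of Fgfr1, 25.7 of Fgfr4, 28.0 of Plau and 62.9 CPM of Plaur.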

How the results depend on the processing

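With 1 library per day, the spread between mice was not measured, and no library could be left out. No paired analysis was possible because each day had 1 library. Of 212 alternative values for the main comparisons, 142 stayed within the counting interval of the value reported, 67 moved out of it and 3 turned in direction. SoupX values moved none of them. Removing cells with 3 or more marker counts of another class left 3 myogenic cells and 151 of 805 FAPs at day 7, so its values rest on few cells.

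Under that removal the log2 ratio of day 7 to day 2 was 0.58 for Hgf, -0.84 for Fgf2 and -1.38 for Plau in FAPs, and 0.69 for Hgf, -2.66 for Met, 1.64 for Plau and -1.73 for Plaur in monocytes and macrophages. The ratio of Pro-remodeling FAPs to Stem FAPs at day 2 turned to 0.094 for Hgf, and that to Adipogenic FAPs at day 7 turned to -1.08 for Plaur. Averaged over cells, the ratio was -1.60 for Fgf2 and -1.37 for Plau in FAPs and -1.56 for Plaur in monocytes and macrophages. Within single annotations the ratio was 2.80 (Pro-remodeling) for Hgf, -0.41 (Stem) and -2.41 (Pro-remodeling) for Fgf2, -0.56 (Stem) and -1.39 (Adipogenic) for Fgf7, -1.75 (Stem) and -0.97 (Adipogenic) for Plau, and -2.66 (Stem) and -4.53 (Adipogenic) for Plaur in FAPs, and -4.00 for Plaur in endothelial cells annotated Stem. In monocytes and macrophages it was 1.21 (Cx3cr1_hi), 0.88 (Cxcl10+), -0.56 (Inflammatory) and -0.40 (Patrolling) for Hgf, -0.11 (Patrolling) for Met, 1.74 (Cx3cr1_hi), -0.79 (Cx3cr1_lo), 1.53 (Inflammatory), 1.83 (Patrolling) and 0.66 (Cxcl10+) for Plau, and -1.54 (Cx3cr1_lo), -1.48 (Inflammatory), -0.75 (Patrolling) and -3.36 (Cxcl10+) for Plaur. Median-of-ratios scaling gave 0.25 for Met, 0.35 for Fgfr1 and 0.30 for Fgfr4 in MuSCs over myoblasts and progenitors. The number of members past 2-fold higher in monocytes and macrophages was 2 under that scaling and 3 with no filter on low counts, against 1.

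A milder removal was chosen after seeing the data. It leaves out Gsn and the myofibre markers and does not set related classes against each other, and it left 49 myogenic cells at day 7. Under it the ratio was -3.45 for Plaur in FAPs and turned to -0.41 for Fgfr1 in smooth muscle and to -0.021 for Plaur in dendritic cells.

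Shares of counts at day 2 under the first and the milder removal were 87.4% and 88.7% for Hgf in monocytes and macrophages, 0% and 0% for Met in myogenic cells, 95.04% and 84.8% for Fgf2, 92.0% and 77.4% for Fgfr1 and 76.2% and 56.1% for Plau in FAPs, and 67.7% and 60.5% for Plaur in monocytes and macrophages. At day 7 they were 86.4% and 68.1% for Hgf in monocytes and macrophages, 90.9% and 90.1% for Fgf2, 90.4% and 87.9% for Fgfr1 and 67.8% and 68.8% for Plau in FAPs, and 67.4% and 70.1% for Plaur in monocytes and macrophages. Under the milder removal alone, 97.9% of Fgf7 counts at day 7 lay in FAPs, and 8.51% of Met and 46.2% of Fgfr4 counts in myogenic cells. Stricter limits on quality gave 74.3% for Hgf and 58.4% for Plaur in monocytes and macrophages at day 2, and no limits gave 52.3% for Plaur.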
